A study of Homo sapiens with 6 samples.

Results

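Cyclins are the regulatory subunits that switch cyclin-dependent kinases (CDKs) on at set points of the cell cycle. Cyclin D1 works with CDK4 and CDK6 in G1, cyclin E1 with CDK2 at the entry into S phase, cyclin A2 with CDK2 and CDK1 through S and G2 phase, and cyclins B1 and B2 with CDK1 at the entry into mitosis. CDK1 bound to a cyclin is held inactive by phosphates that WEE1 and PKMYT1 add, and the CDC25 phosphatases remove them.

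The genes described here are 10 members of this machinery, chosen by symbol from a deposited table of 4546 genes: the mitotic cyclins CCNA2, CCNB1, CCNB2 and CCNF, the kinase CDK1 with its activating phosphatases CDC25B and CDC25C, the G1 cyclins CCNE1 and CCND1, and the p53-linked CCNG1. All 10 have 1 row each. They were measured by RNA sequencing in A549, an established human lung adenocarcinoma cell line, after 48 hours with 50 nM mitoxantrone, a poison of DNA topoisomerase II (3 libraries), or with DMSO, the solvent, diluted 1/1000 (3 libraries). The 4546 genes had passed a threshold of the authors on these same libraries, so that each member was bound to differ. Among the listed genes the authors' smallest difference was 1.00 log2 unit and their largest adjusted p was 0.0497. A gene outside the table is called not listed here, which does not mean that it was unchanged.

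Library totals lay between 16681380 and 19352443 reads with mitoxantrone and between 20380674 and 21781220 with DMSO. Whether replicates came from separate cultures is not in the labels, and the p-values rest on the spread from library to library, which may be technical. Of 5 epithelial markers 3 were listed (KRT19, KRT8 and CDH1), with summed FPKM of 1497 to 1612 with mitoxantrone and 638 to 725 with DMSO. FPKM is the number of fragments scaled to the deposited gene length and to library depth. An order of genes by FPKM therefore depends on those lengths. Of 5 leukocyte markers 3 were listed, with summed FPKM of 3.85 to 4.14 against 0.87 to 1.04, and of 4 fibroblast markers COL1A1 alone was listed, at 1.21 to 1.53 against 3.09 to 3.51. The part of these markers in the results below was not tested.

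Promoter sequence is shown first, searched for short motifs known from genes of G2 phase and mitosis. Whether these motifs have a part in the changes with mitoxantrone was not tested. The CCAAT box is bound by the factor NF-Y, and the cell cycle genes homology region (CHR), with the letters TTTGAA, or in variant form CTTGAA or TTCGAA or TTTAAA, by the MuvB and DREAM complexes. RefSeq promoter windows of GRCh38.p14, from 250 bases before to 50 bases after an annotated start, were matched for 9 members (CCNA2, CCNB1, CCNB2, CCNF, CDK1, CDC25B, CDC25C, CCNE1 and CCNG1) in 17 windows, and both strands were searched. For 4 genes, the bases within 120 of a start that lie outside exons of GENCODE 29 are shown here because they hold CCAAT boxes, 5′ to 3′ on the gene's strand, with CCAAT and CHR letters of either strand in capitals (ATTGG is CCAAT on the other strand).
CCNA2 (chr4:121823934-121824003, minus strand): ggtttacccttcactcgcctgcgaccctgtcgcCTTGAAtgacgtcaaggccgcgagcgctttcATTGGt
CCNB2 (chr15:59105026-59105077, plus strand): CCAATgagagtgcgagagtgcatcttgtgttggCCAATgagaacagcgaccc
CCNF (chr16:2429327-2429393, plus strand): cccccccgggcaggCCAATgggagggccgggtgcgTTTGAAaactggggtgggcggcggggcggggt
CCNG1 (chr5:163437451-163437568, plus strand): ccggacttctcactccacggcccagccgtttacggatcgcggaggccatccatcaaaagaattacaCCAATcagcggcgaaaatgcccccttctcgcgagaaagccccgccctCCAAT

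Stretches of 30 bases around 1 CHR match let 7 genes be compared side by side.
CCNA2 (chr4:121823894-121823923, minus strand): agtcgcgggataCTTGAActgcaagaacag
CCNB1 (chr5:69167108-69167137, plus strand): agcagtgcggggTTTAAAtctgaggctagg
CCNB2 (chr15:59105105-59105134, plus strand): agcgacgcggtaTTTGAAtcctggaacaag
CDC25C (chr5:138331817-138331846, minus strand): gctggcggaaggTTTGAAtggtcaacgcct
CDK1 (chr10:60778397-60778426, plus strand): ctgATTGGctgcTTTGAAagtctacgggct
CDC25B (chr20:3796260-3796289, plus strand): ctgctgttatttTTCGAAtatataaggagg
CCNE1 (chr19:29811951-29811980, plus strand): gcgcgcagggatTTTAAAtgtcccgctctg

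The CHR letters shown began 28, 30, 29 and 30 bases before a start in CCNA2, CCNB1, CCNB2 and CDC25C, and 69 and 38 bases before one in CDK1 and CDC25B. In CCNF, shown above, TTTGAA began 85 bases before the start. In CCNE1, a higher member, TTTAAA began 28 bases before the start, so this position was not limited to lower members. CCNB2 had CCAAT boxes beginning 244, 120, 87 and 54 bases before its start, the last 3 of them 33 bases apart, and CCNB1 had boxes at 87 and 55 bases, 32 apart, with the last box of each beginning 25 bases before the CHR letters. A CCAAT box and CHR letters stood in the same window for 7 of 7 lower members and for 0 of the 2 higher members with a window, in 9 of 17 windows in all. Over all 35116 windows of that length in the RefSeq table the pair was found in 12.4%, CCAAT alone in 34.6%, TTTGAA in 15.2% and any of the 4 CHR strings in 32.2%. CCNE1 had TTTAAA and no CCAAT, and CCNG1 had 4 CCAAT boxes and no CHR letters. The strings TTTCGCGC or TTTGGCGC, forms of the site of E2F factors, were found in CDK1 alone, against 1.15% of all windows. A p53 half-site was found in CDC25C alone, against 6.63%. Other forms of these sites, and sites outside the windows, were not searched. An absence here therefore does not show that a gene lacks such a site. Genes with several annotated starts had more windows to match in, and CDC25B had 4. CDC25B and CDC25C also had windows without the pair. The count of 7 of 7 is by gene and the 12.4% by window, so they are not in the same unit. These are matches of letters, not sites shown to be bound.

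Mitotic cyclins were lower with mitoxantrone, by 4.54-fold to 31.6-fold. All 4 passed edgeR's quasi-likelihood test, as did 7 of the 10 members in the lower direction. The background is that 100% of the 4546 genes passed and 41.1% passed as lower, so the count says nothing particular about the members. In such bulk samples fewer cells in G2 phase or mitosis and less RNA per cell cannot be told apart. Values below are normalized counts, which are read counts divided by a size factor for each library.

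CCNA2, which encodes cyclin A2, had 38.7, 42.9 and 49.0 normalized counts in mitoxantrone libraries 1 to 3, against 1352, 1323 and 1491 in DMSO libraries 1 to 3. Every mitoxantrone library lay far under every DMSO library, at a log2 fold change of -4.98 ± 0.12 (SE, adjusted p = 8.2e-33 in edgeR), a 31.6-fold difference. CCNB2, cyclin B2, had 83.5, 71.1 and 58.2 counts with mitoxantrone and 1573, 1717 and 1716 with DMSO. It was 23.7-fold lower (log2 fold change -4.57 ± 0.11, adjusted p = 1.2e-32), again with no overlap. CCNB1, cyclin B1, kept more of its transcript, with 309.7, 322.8 and 298.9 counts with mitoxantrone and 2745, 2823 and 2948 with DMSO. Its log2 fold change was -3.19 ± 0.08 (adjusted p = 7.7e-32), a 9.15-fold difference. The groups did not overlap in any of the 10 members, as in 98.3% of the listed genes.

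CCNF differs in kind from the other cyclins, since cyclin F activates no CDK and serves as the substrate receptor of an SCF ubiquitin ligase. It had 135.5, 128.7 and 141.8 counts with mitoxantrone and 625.9, 606.5 and 614.7 with DMSO. At a log2 fold change of -2.18 ± 0.11 (adjusted p = 5.1e-22 in edgeR) it was 4.54-fold lower, the smallest difference of the 4 mitotic cyclins.

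**Figure D1:**
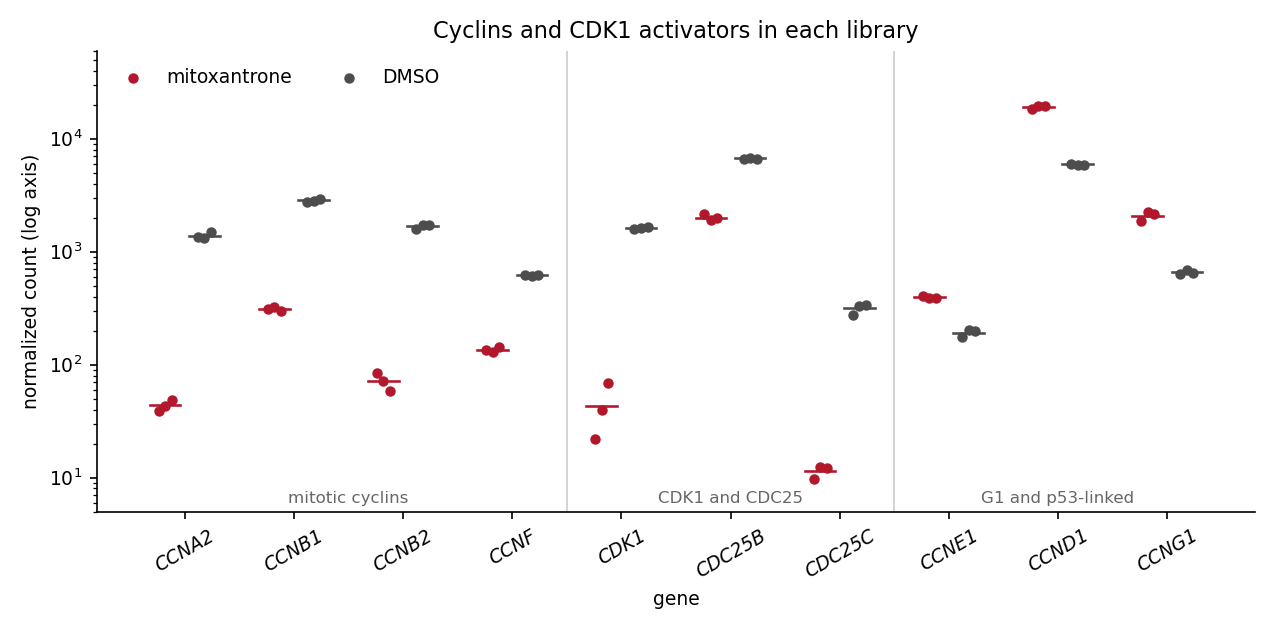
Normalized counts (log axis) of the 10 genes in each library, with mitoxantrone libraries in red left of DMSO libraries in grey; points are libraries 1 to 3 from left to right and bars their mean. The 7 genes at the left and centre are lower with mitoxantrone and the 3 at the right higher, and CDK1 shows the widest spread between mitoxantrone libraries, from 21.8 to 68.4 counts.

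CDK1 was lower with mitoxantrone by 36.4-fold, and of the 10 members it had the least agreement between mitoxantrone libraries. It had 21.8, 39.5 and 68.4 normalized counts in mitoxantrone libraries 1 to 3, from 18, 35 and 67 reads, against 1578, 1626 and 1660 in DMSO libraries 1 to 3. The highest mitoxantrone library held 3.14 times the lowest, while the DMSO libraries differed by at most 1.05 times. The log2 fold change was -5.19 ± 0.14 in edgeR, which shares its estimate of spread between genes (adjusted p = 9.0e-31). The standard error was 0.41 in DESeq2 and 0.37 in the authors' deposited table, whose log2 fold change was -4.76. Without mitoxantrone 3 the edgeR value was -5.71 and without mitoxantrone 1 it was -4.89. With all libraries CCNA2 had the smaller change of the pair in edgeR and in DESeq2 (-4.99 for CCNA2, -5.22 for CDK1). It had the larger change in edgeR without mitoxantrone 1 (-4.91) and in the authors' deposited table (-4.93), so their order is not settled. CDK1 was lower in every library pair, and its exact size is known less well than that of the cyclins.

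The CDC25 phosphatases fell by unequal amounts. CDC25C had 9.68, 12.4 and 12.2 counts with mitoxantrone, from 8, 11 and 12 reads, and 276.9, 331.6 and 333.6 with DMSO. This was a 27.0-fold difference (log2 fold change -4.75 ± 0.20, adjusted p = 1.3e-24 in edgeR), near those of CCNA2 and CCNB2. CDC25B, which acts at the start of mitotic entry, remained abundant, with 2145, 1890 and 1974 counts with mitoxantrone and 6606, 6801 and 6630 with DMSO. Its log2 fold change of -1.74 ± 0.07 (adjusted p = 9.8e-26), or 3.34-fold, was the smallest of the 7 lower members.

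The G1 and p53-linked cyclins among the members went the other way. CCND1, CCNG1 and CCNE1 were higher with mitoxantrone, by 3.24-fold, 3.16-fold and 2.04-fold, beside 58.9% of listed genes that passed as higher. CCND1, cyclin D1, had 18378, 19630 and 19478 normalized counts with mitoxantrone and 6026, 5872 and 5864 with DMSO (log2 fold change 1.69 ± 0.06, adjusted p = 3.3e-27 in edgeR). It was the most abundant member with mitoxantrone by count and per length. Its span overlaps that of ORAOV1, a listed gene on the other strand with a log2 fold change of -1.01, and the labels do not say whether the libraries kept strand.

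CCNG1 encodes cyclin G1, a direct target of p53 that binds regulatory subunits of the phosphatase PP2A. It had 1857, 2227 and 2150 counts with mitoxantrone and 639.6, 690.1 and 642.3 with DMSO. Its log2 fold change was 1.66 ± 0.08 (adjusted p = 2.4e-22 in edgeR). CCNE1, cyclin E1, had the smallest difference of the 10, with 401.6, 384.9 and 391.7 counts with mitoxantrone and 174.0, 202.5 and 200.0 with DMSO. The libraries did not overlap, and its log2 fold change of 1.03 ± 0.11 passed the edgeR test against no change (adjusted p = 1.5e-11). When edgeR's glmTreat asked for more than a 2-fold change, CCNE1 missed the threshold (adjusted p = 0.18), while the other 9 members and 80.6% of the listed genes passed. Of the 2677 higher genes 98.3% had a larger change than CCNE1, whereas CDK1, CCNA2, CDC25C and CCNB2 were exceeded by 2.94%, 3.75%, 4.98% and 5.67% of the 1869 lower genes.

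The members were then set side by side as groups, as a description with no test. They were chosen with earlier results of these data known, so the direction of the difference between groups was fixed in advance. Listed cyclins outside the members are not in these groups. Of them CCNE2 was lower (log2 fold change -1.43), and CCND3 (1.52) and CCNG2 (1.65) were higher. The median log2 fold change was 1.66 for CCNE1, CCND1 and CCNG1 and -3.88 for the 4 mitotic cyclins, a gap of 5.54 log2 units. The median of all listed genes was 1.20. These were selected, with no deposited change under 1.00 log2 unit in size, so 1.20 is not the change of a typical gene. Within a library, mean log2 normalized counts of the G1 and p53-linked cyclins minus those of the mitotic cyclins came to 4.47, 4.59 and 4.60 with mitoxantrone and to -0.66, -0.58 and -0.69 with DMSO. This difference is free of the scaling between libraries, and it changed by 5.20 log2 units with a spread of 0.07 and 0.05 (SD, n = 3 libraries each).

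Per length, the order of the members changed. In mitoxantrone libraries CCND1 led with 199.5 ± 9.56 FPKM, followed by CCNG1 at 33.8 ± 3.57, CDC25B at 24.3 ± 1.28, CCNE1 at 7.69 ± 0.09 and CCNB1 at 6.10 ± 0.25 (SD, n = 3). Below them stood CCNB2 at 1.95 ± 0.33, CCNF at 1.08 ± 0.06, CCNA2 at 0.79 ± 0.10, CDK1 at 0.56 ± 0.31 and CDC25C at 0.19 ± 0.03 FPKM. Only CCNA2 and CDK1 were neighbours whose libraries overlapped in that group. In DMSO libraries CDC25B led with 85.9 ± 0.67 FPKM, ahead of CCND1 at 65.4 ± 1.30, CCNB1 at 59.2 ± 2.35, CCNB2 at 48.8 ± 2.29, CCNA2 at 26.5 ± 1.89 and CDK1 at 22.1 ± 0.61. The lowest 4 were CCNG1 at 11.3 ± 0.39, CDC25C at 5.51 ± 0.56, CCNF at 5.21 ± 0.12 and CCNE1 at 3.99 ± 0.31 FPKM, of which CDC25C and CCNF overlapped. CCNE1 stood above every mitotic cyclin with mitoxantrone and in last place with DMSO.

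The summed FPKM of the 7 cyclins was 250.9 ± 13.0 with mitoxantrone and 220.4 ± 5.52 with DMSO (SD, n = 3 libraries), while its make-up differed. The 4 mitotic cyclins made up 3.96% ± 0.26 of the sum with mitoxantrone and 63.4% ± 1.08 with DMSO. CCND1 made up 79.5% ± 0.36 with mitoxantrone and 29.7% ± 1.09 with DMSO, CCNG1 13.4% ± 0.75 and 5.14% ± 0.24, and CCNE1 3.07% ± 0.19 and 1.81% ± 0.12. The sum leaves out listed cyclins that are not members. Among them CCND3 stood at 74.7 ± 1.11 FPKM with mitoxantrone and 27.7 ± 2.59 with DMSO, above CCNG1 in both groups. The values are therefore shares among these 7 cyclins alone, of transcript, and say nothing of protein.

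**Figure D2:**
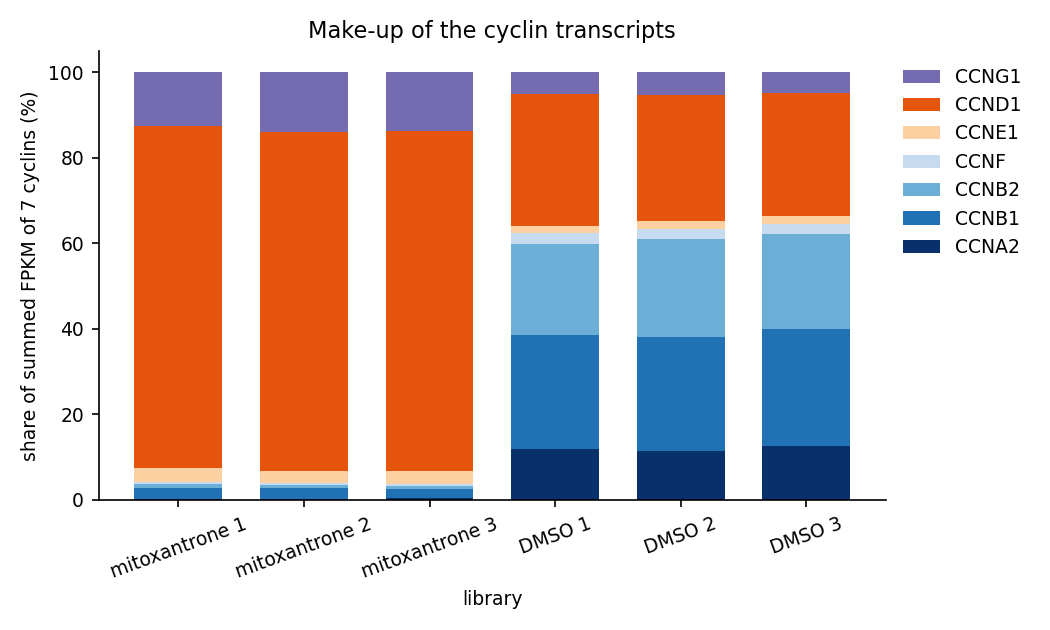
Share of each of 7 cyclin genes in their summed FPKM (%, vertical axis) in each library, with mitoxantrone libraries left of DMSO libraries. CCND1 fills 79.2% to 79.9% of each mitoxantrone bar and 28.8% to 30.9% of each DMSO bar, and the 4 mitotic cyclins in blue shrink to a thin band with mitoxantrone.

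Ratios between members within a library, for 9 pairs, showed where genes changed by different amounts. With 3 libraries against 3 an exact two-sided permutation test cannot give a p under 0.1, before or after adjustment over these pairs, so no pair could pass. CCNB1 stood to CDK1 at log2 ratios of 3.83, 3.03 and 2.13 with mitoxantrone and 0.80, 0.80 and 0.83 with DMSO, a ratio 4.56-fold higher with mitoxantrone (exact permutation p = 0.1, adjusted p = 0.15). CCNB2 to CDK1 stood at 1.94, 0.85 and -0.23 against -0.00, 0.08 and 0.05, which overlapped (permutation p = 0.4, adjusted p = 0.45), and CCNA2 to CDK1 at 0.83, 0.12 and -0.48 against -0.22, -0.30 and -0.16 (permutation p = 0.4, adjusted p = 0.45). In all 3 ratios mitoxantrone 1 was highest and mitoxantrone 3 lowest, the reverse of their order in CDK1 counts.

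CCNB1 to CCNB2 did not involve CDK1 and was tighter, at 1.89, 2.18 and 2.36 with mitoxantrone and 0.80, 0.72 and 0.78 with DMSO, a 2.60-fold shift toward cyclin B1. CDC25B to CDC25C shifted by 8.24-fold toward CDC25B, with log2 ratios of 7.79, 7.25 and 7.33 against 4.58, 4.36 and 4.31. CCNE1 to CCNA2 showed the largest shift of the 9, 65.6-fold, with log2 ratios of 3.38, 3.17 and 3.0 with mitoxantrone and -2.96, -2.71 and -2.90 with DMSO. Each of these shifts had no overlap between groups and the smallest exact permutation p possible, 0.1.

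Among the higher members, CCNG1 to CCND1 stood at -3.31, -3.14 and -3.18 with mitoxantrone and -3.24, -3.09 and -3.19 with DMSO. The difference of -0.04 was smaller than the spread within either group (SD 0.09 and 0.08; exact permutation p = 0.7, adjusted p = 0.7), though such a small design does not show that both changed alike. CCNE1 to CCND1 was 1.58-fold lower with mitoxantrone (-5.52, -5.67 and -5.64 with mitoxantrone, -5.11, -4.86 and -4.87 with DMSO). CCNG1 to CCNE1 was higher by 0.62 log2 units, with 2.21, 2.53 and 2.46 against 1.88, 1.77 and 1.68. Both pairs had no overlap and an exact permutation p of 0.1.

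**Figure D3:**
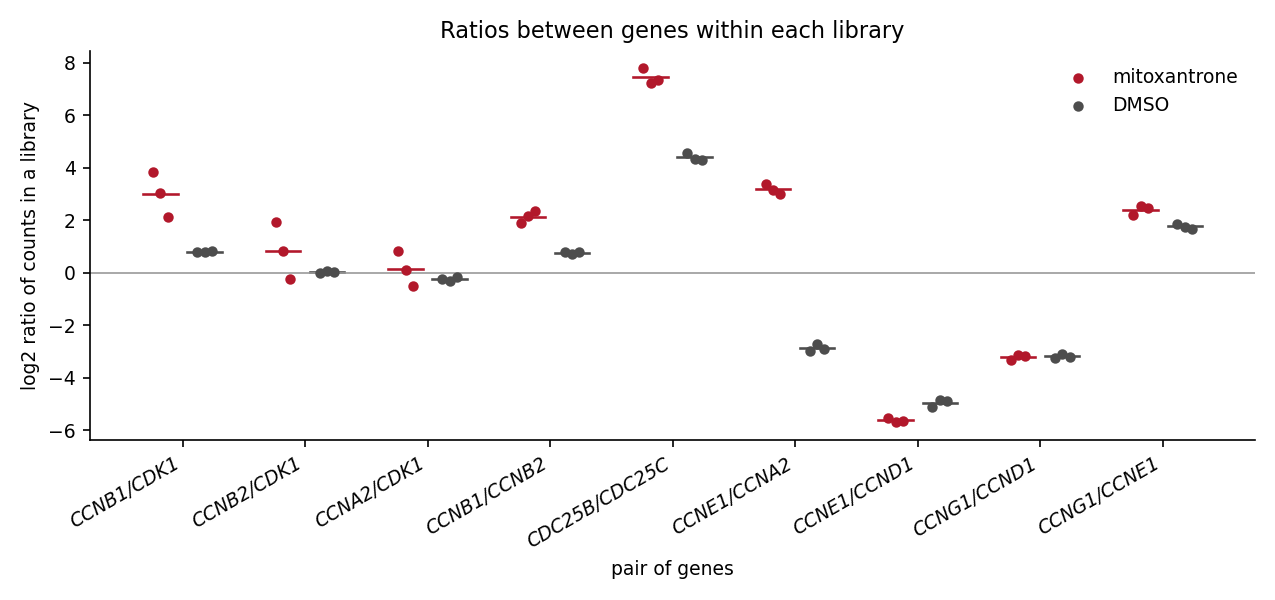
Log2 ratio of the normalized counts of one gene to another within each library (vertical axis) for 9 pairs, with mitoxantrone in red left of DMSO in grey; points are libraries 1 to 3 from left to right and bars their mean. CCNE1 to CCNA2 lies at 3.0 to 3.38 with mitoxantrone and below 0 with DMSO, and the ratios to CDK1 are spread widely with mitoxantrone.

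The remaining machinery was read from 5 lists of 83 genes in all, of which 30 were listed, in 31 rows. Of these rows 26 were lower and 5 higher, all passing edgeR's test, as did 100% of the listed genes (41.1% lower and 58.9% higher). The median log2 fold change of these rows was -2.11, against 1.20 for all listed genes, which had been selected as changed. Genes that switch CDK1 were lower without exception among those listed, 10 of 12 genes in 11 rows, with a median of -3.25. PLK1, the kinase that activates CDC25C, was 36.4-fold lower (68.3 ± 7.98 counts with mitoxantrone, 2502 ± 98.1 with DMSO; SD, n = 3). PKMYT1 and WEE1, the kinases that restrain CDK1, were 32.3-fold and 4.14-fold lower, so both activating and restraining genes were among those that fell. CDC25A, the remaining CDC25 phosphatase, was 5.16-fold lower, FOXM1, a transcription factor of G2 and mitotic genes, 25.4-fold, and AURKA, the kinase that activates PLK1, 12.0-fold. CKS1B and CKS2, small subunits of CDK complexes, were 9.55-fold and 4.32-fold lower.

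Of 21 genes of cyclin degradation 4 were listed, all lower with a median of -4.36, beside 41.1% of all listed genes that were lower. The other 17 were not listed. CDC20, the activator of the anaphase-promoting complex that marks cyclin B for destruction in mitosis, was 36.4-fold lower (79.5 ± 9.44 against 2886 ± 82.8 counts). UBE2C and UBE2S, ubiquitin-conjugating enzymes of that complex, were 43.1-fold and 7.58-fold lower, and FBXO5, its inhibitor EMI1, 11.6-fold. Its subunits on the list, the ANAPC genes with CDC16, CDC23, CDC26 and CDC27, were not listed.

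Other cyclins and kinases moved in both directions where listed. Of 22 other cyclins 5 were listed, 2 higher and 3 lower, beside 58.9% higher and 41.1% lower among all listed genes. CCND3, cyclin D3, was 2.86-fold higher (7871 ± 204 against 2752 ± 254 counts), near CCND1, and CCNG2, cyclin G2, 3.14-fold higher (233.3 ± 18.7 against 74.3 ± 1.49), near CCNG1. CCNE2, cyclin E2, was low and went against CCNE1, at 12.1, 11.3 and 18.4 counts with mitoxantrone and 35.1, 25.1 and 53.4 with DMSO (log2 fold change -1.43 ± 0.33, adjusted p = 1.1e-04 in edgeR). CCNH and CCNT1, cyclins of kinases that act on RNA polymerase II, were 2.19-fold and 2.21-fold lower. Of 18 further kinases 4 were listed. CDK6, a partner of cyclin D1, was 2.49-fold lower (2025 ± 95.6 against 5036 ± 592), CDK2, the partner of cyclins E and A, 2.77-fold lower (246.0 ± 36.1 against 684.5 ± 79.1) and CDK17 2.2-fold lower, while CDK18 was 3.12-fold higher. CDK4 was not listed.

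CDK inhibitors went in both directions where listed. Of 10 genes 7 were listed, 2 higher and 5 lower, beside 58.9% higher and 41.1% lower among all listed genes. CDKN1A, the inhibitor p21, was 8.03-fold higher. SFN, the 14-3-3 protein sigma that binds CDK1 and cyclin B1 in the cytoplasm, was 6.87-fold higher (6664 ± 347 against 969.8 ± 87.5 counts). CDKN1B, p27, was 2.87-fold lower, CDKN2C, p18, 5.84-fold, CDKN2D, p19, 2.82-fold and GADD45A, a stress protein that can inhibit CDK1, 3.19-fold lower. CDKN3, a phosphatase of CDK2 and CDK1, was 12.3-fold lower. Targets of p53 were not examined as a set.

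**Figure D4:**
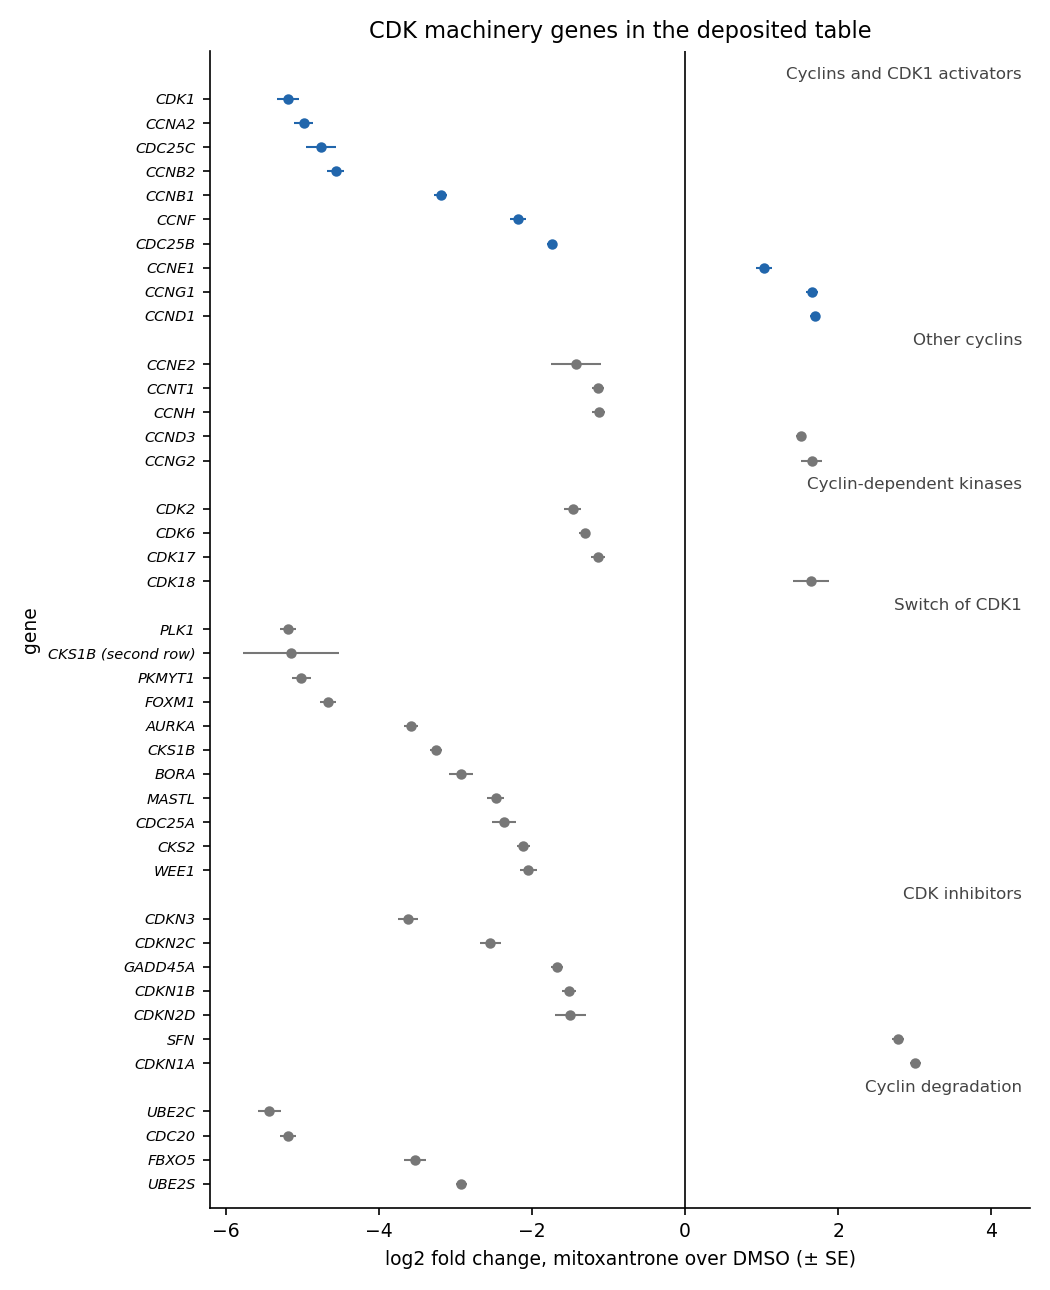
Log2 fold change, mitoxantrone over DMSO (horizontal axis, bars are SE), of the 10 members in blue and of the listed genes of 5 lists of CDK machinery in grey; the second row named CKS1B is a separate identifier. The members run from -5.19 (CDK1) to 1.69 (CCND1), and the listed genes that switch CDK1 or degrade cyclins all lie left of 0.

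For each member the 2 listed genes with the most similar profile were found, by Euclidean distance over the 6 libraries of log2(normalized count + 1) minus the DMSO mean, among 2622 genes with a mean of at least 50. With 2 groups this measure mainly finds genes of like fold change. CCNA2 lay closest to RRM2 (distance 0.14) and PKMYT1 (0.19), CCNB1 to LMNB1 (0.16) and FANCI (0.17), CCNB2 to PHGDH (0.29) and ORC6 (0.35), and CCNF to POLE (0.11) and CKS2 (0.16). CDC25C lay closest to FOXM1 (0.25) and CIT (0.32), and CDC25B to GINS3 (0.07) and C19orf48 (0.07). CDK1 had no gene as close, with SGOL1 at 0.48 and DIAPH3 at 0.60. Among the higher members CCND1 lay closest to PRSS23 (0.12) and TGFBR2 (0.13), CCNG1 to MGST2 (0.13) and DKK1 (0.17), and CCNE1 to AKR1C3 (0.07) and PKDCC (0.08).

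Gene spans are given as the deposited table has them, with no build named: CCNA2 on chromosome 4 from 122737599 to 122745087, CCNB1 on chromosome 5 from 68462837 to 68474072, CDC25C on chromosome 5 from 137620954 to 137674044, CDK1 on chromosome 10 from 62538089 to 62554610, CCNB2 on chromosome 15 from 59397277 to 59417244, CCNF on chromosome 16 from 2479395 to 2508855, CDC25B on chromosome 20 from 3767578 to 3786762, CCND1 on chromosome 11 from 69455855 to 69469242, CCNE1 on chromosome 19 from 30302805 to 30315215 and CCNG1 on chromosome 5 from 162864575 to 162873157. In that table CCNA2 overlaps EXOSC9 (log2 fold change -1.25) and CCNB1 a small RNA gene named snoU13 (-3.67), both on the opposite strand, so the gene of origin of reads over these overlaps is uncertain. In GENCODE 29 CDC25C overlaps FAM53C on the opposite strand, and CCNB2 and CCNF overlap non-coding genes.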

How the data were processed

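RNA of 6 A549 libraries was sequenced as paired reads of 150 bases after 13 cycles of PCR, per the labels' protocols. Tools in the submitters' processing notes are HISAT2 2.0.1, cutadapt 1.9.1, SAMtools 0.1.19, HTSeq 0.6.1, Cufflinks 2.2.1 and DESeq2. The genome build is not given in the sources used here. Per the file headers, the authors gave raw read counts and FPKM per gene and library, a mean normalized count (a signal), a log2 fold change with its error, a score (fold change over error), a p-value and an adjusted p-value.

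The deposited counts and mean normalized counts gave the size factors by least squares, and counts with FPKM of 20 or more gave library totals. edgeR 4.0.16 (R 4.3.3; quasi-likelihood F-test, no covariate, no count filter, Benjamini-Hochberg over 4546 genes, threshold 0.05) was run on the deposited counts. A check of the code on simulated data had 200 changed genes. In the deposited data all genes had been chosen as changed, so that check does not give the error rates here. The SE is the log2 fold change divided by the root of F. DESeq2 1.42.0 was an alternative. Without spike-ins, changes in total RNA per cell are not seen. The rule for named genes was all members, listed genes of 5 lists and the 2 nearest genes to each member. Members and lists were chosen with earlier results of these data known. No pair of replicates agreed within sampling noise.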

Additional observations from a re-analysis of the deposited data

How the results depend on the processing

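Under the alternatives planned, all 10 members kept their direction, and 9 kept their side of the threshold throughout. The exception was CCNE1, whose log2 fold change of 1.03 missed the threshold when more than a 2-fold change was asked for (edgeR's glmTreat, adjusted p = 0.18). The CCNE1 value was 0.77 with TMM on the listed genes and 0.95 with library totals. It ranged from 0.96 to 1.07 with 1 library left out in turn. TMM on the listed genes moved the median of all genes by -0.26 log2 units and library totals moved it by -0.08, which leaves ratios within a library as they were. With 1 library left out in turn, the gap between G1 and p53-linked and mitotic cyclins ranged from 5.44 to 5.67 (5.67 without mitoxantrone 1 and 5.44 without mitoxantrone 3, the cause was not tested), and CDK1 ranged from -5.71 to -4.89. Deviations of libraries with the same number were hardly correlated (r of -0.07, -0.08 and 0.03 over 2622 genes), and the replicate block gave 2677 higher and 1869 lower genes, the counts without it. Reads of CDC25C and CDK1 with mitoxantrone, 31 and 120 over 3 libraries, limit the precision of their ratios. PCR reads without molecular identifiers are not independent molecules. CCNE1 lies near the smallest difference among the listed genes, which the authors chose on these same libraries.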

Other observations

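The spread of CDK1 between mitoxantrone libraries stood apart from that of most lower genes. Among 1421 lower genes with a mean of at least 20 normalized counts with mitoxantrone and 50 with DMSO, the median coefficient of variation between mitoxantrone libraries was 9.67%. CDK1 had 54.4% with mitoxantrone and 2.57% with DMSO, and 2 of the 1421 genes, CDK1 included, reached 54.4% with mitoxantrone. The genes were not matched to CDK1 by level, which had a mean of 43.2 normalized counts with mitoxantrone. Genes with fewer counts than these limits were left out. The part of counting noise in this spread was not tested. The other gene that reached it was GAS2L3, a gene of the cytoskeleton chosen here after its values were seen. It had 7.26, 20.3 and 35.7 counts in mitoxantrone libraries 1 to 3 and 417.5, 387.3 and 435.4 in DMSO libraries 1 to 3.

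A second row named CKS1B, under the identifier ENSG00000268942 on chromosome 5, had 2.42, 0 and 0 normalized counts with mitoxantrone and 32.6, 37.2 and 22.4 with DMSO. Both rows carry the same symbol, and the level of either is uncertain where reads match both.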
